A study of Mus musculus with 8 samples.

Results

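The comparison described here set reporter-high against reporter-low cells of heterozygous mouse mammary glands. Its members were the 4 arrays, of 8 in the series, whose titles name the Axl LacZ/+ genotype with a high or a low gate, and each gate had 2 arrays. FDG, fluorescein di-β-D-galactopyranoside, turns fluorescent once β-galactosidase cleaves it, and lacZ encodes that enzyme. The FDG-high group held the 5% of cells with the brightest signal and the FDG-low group the 65% with the dimmest. Both came from nulliparous mice, 16 weeks old, of the B6.129P2-Axl tm1Dgen strain, with the lacZ insertion on 1 of the 2 Axl alleles (Axl+/LacZ), so that 1 intact allele remained in every cell. Before the gates were applied, dead cells had been removed with propidium iodide, and cells bearing CD45, CD31 or CD11b had been removed with antibodies. The other 4 arrays hold FDG-high and FDG-low cells of AxlLacZ/LacZ glands, with the insertion on both alleles and the same strain, age and sort. They entered the shared estimate of the spread and 1 comparison at the end. Each sample pooled the glands of several animals of its genotype. Nothing in the labels shows that both arrays of a group had pools of their own, and p-values therefore reflect only a spread between samples that may be technical.

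Axl, with Tyro3 and Mertk, makes up the TAM family of receptor tyrosine kinases, which the ligands GAS6 and protein S engage. A mammary duct has an inner layer of luminal cells, which are sealed by tight junctions and make milk proteins, and an outer layer of contractile basal (myoepithelial) cells. The ducts rest on a basement membrane inside a stroma of fibroblasts and fat, and fibroblasts lay down most of the collagen and elastic fibres. The comparison asked which of these programmes go with a brighter signal of the Axl reporter. Axl itself was above background in both gates.

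Probe intensities were background corrected, quantile normalized over the 8 arrays and put on a log2 scale, and the brightest probe stood for each of 16593 genes. The median raw intensity of an array was 115.7 to 126.7 units, and 48.1% to 55.5% of its probes exceeded background. Values below are normalized log2 levels, given for replicate 1 and then replicate 2 of a gate. A difference is FDG-high minus FDG-low on the log2 scale, with its standard error from limma. After adjustment over all genes, 1 gene was higher in FDG-high cells (0.00603% of those tested) and 0 were lower (0%). At an unadjusted p under 0.05, 783 genes (4.72%) were higher and 918 (5.53%) were lower. These shares are the background for every count of list members called higher or lower below. Counts of members whose gates did not overlap have a background of their own, 18.5% higher and 20.5% lower. The median difference over all genes was -0.00855. Genes encoding the sorted-out surface proteins were looked at outside the naming rule. Ptprc (CD45) and Itgam (CD11b) were below background on all 4 heterozygous arrays. Pecam1 (CD31) read 6.45 and 6.28 in FDG-high cells and 6.37 and 6.30 in FDG-low cells, against background levels between 6.10 and 6.14.

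In outline, genes of connective tissue and of basal cells had the higher levels in FDG-high cells, and genes of the luminal surface, of tight junctions and of luminal keratins had the higher levels in FDG-low cells. In the arrays of bulk sorted cells, fewer cells of a type and less RNA per cell cannot be told apart. Of 21 luminal surface genes, 15 were lower and 0 higher at an unadjusted p under 0.05, and of 14 fibrillar and associated collagens, 9 were higher and 0 lower.

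Promoter sequences of 8 genes from these groups are shown because their windows hold 1 of 2 short motifs whose shares were counted over the promoters of the genes that differed. Windows run from 250 bases before to 50 bases after an annotated start, 5′ to 3′ on the gene's own strand, from RefSeq on GRCm38.p6. The first motif is the E-box CAGGTG, which reads CACCTG on the opposite strand and is the textbook target of the ZEB and SNAI repressors of epithelial genes. The second is the AP-1 site TGACTCA, or TGAGTCA on the opposite strand, which FOS and JUN proteins bind. Both strands were searched. The motifs can overlap by the letters CA, and 0 of the windows printed here hold both. Capitals mark the motif. The first 5 windows belong to genes with lower levels in FDG-high cells: the tight junction claudins Cldn3 and Cldn7, the luminal keratin Krt7, the mucin Muc1 and the transcription factor Elf5.
Cldn3 (chr5:134985964-134986263, + strand): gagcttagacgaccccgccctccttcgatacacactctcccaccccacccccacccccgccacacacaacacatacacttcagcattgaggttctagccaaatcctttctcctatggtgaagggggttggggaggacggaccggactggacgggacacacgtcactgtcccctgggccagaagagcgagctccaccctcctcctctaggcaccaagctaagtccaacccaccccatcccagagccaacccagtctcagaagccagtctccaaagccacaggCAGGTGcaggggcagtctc
Cldn7 (chr11:69965171-69965470, + strand): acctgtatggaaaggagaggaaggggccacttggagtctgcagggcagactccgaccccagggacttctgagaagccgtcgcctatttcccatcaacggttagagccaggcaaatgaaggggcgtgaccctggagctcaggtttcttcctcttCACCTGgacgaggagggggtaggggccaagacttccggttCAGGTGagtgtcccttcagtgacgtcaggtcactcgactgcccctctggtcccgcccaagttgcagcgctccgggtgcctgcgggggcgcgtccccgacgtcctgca
Krt7 (chr15:101412153-101412452, + strand): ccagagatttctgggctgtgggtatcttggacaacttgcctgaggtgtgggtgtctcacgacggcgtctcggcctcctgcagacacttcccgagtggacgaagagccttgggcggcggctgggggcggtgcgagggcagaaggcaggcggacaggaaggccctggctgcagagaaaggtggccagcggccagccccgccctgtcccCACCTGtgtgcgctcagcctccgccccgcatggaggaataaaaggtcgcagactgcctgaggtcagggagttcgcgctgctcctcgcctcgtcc
Muc1 (chr3:89228806-89229105, + strand): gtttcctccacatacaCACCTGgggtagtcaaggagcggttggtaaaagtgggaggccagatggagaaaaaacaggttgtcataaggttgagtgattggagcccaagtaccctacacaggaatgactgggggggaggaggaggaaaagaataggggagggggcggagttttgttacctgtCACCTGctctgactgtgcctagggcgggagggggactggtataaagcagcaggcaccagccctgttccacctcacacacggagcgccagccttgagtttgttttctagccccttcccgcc
Elf5 (chr2:103411848-103412147, + strand): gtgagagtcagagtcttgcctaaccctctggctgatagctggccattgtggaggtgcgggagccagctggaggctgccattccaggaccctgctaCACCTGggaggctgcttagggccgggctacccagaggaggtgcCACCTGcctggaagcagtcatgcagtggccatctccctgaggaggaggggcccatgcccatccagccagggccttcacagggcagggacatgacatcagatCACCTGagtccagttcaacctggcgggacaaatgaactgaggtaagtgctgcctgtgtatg
The last 3 belong to matrix metalloproteinases with higher levels in FDG-high cells.
Mmp3 (chr9:7445572-7445871, + strand): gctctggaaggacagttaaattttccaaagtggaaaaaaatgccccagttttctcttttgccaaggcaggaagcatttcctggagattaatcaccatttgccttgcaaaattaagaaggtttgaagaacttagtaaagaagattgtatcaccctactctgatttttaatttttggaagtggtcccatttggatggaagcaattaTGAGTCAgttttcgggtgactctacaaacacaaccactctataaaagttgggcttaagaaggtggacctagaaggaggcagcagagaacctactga
Mmp12 (chr9:7347124-7347423, + strand): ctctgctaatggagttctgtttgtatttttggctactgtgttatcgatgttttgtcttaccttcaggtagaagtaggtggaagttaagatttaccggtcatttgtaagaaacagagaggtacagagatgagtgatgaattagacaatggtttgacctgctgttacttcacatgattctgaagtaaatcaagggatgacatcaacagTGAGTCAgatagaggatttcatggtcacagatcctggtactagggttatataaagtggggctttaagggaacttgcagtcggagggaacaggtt
Mmp13 (chr9:7272264-7272563, + strand): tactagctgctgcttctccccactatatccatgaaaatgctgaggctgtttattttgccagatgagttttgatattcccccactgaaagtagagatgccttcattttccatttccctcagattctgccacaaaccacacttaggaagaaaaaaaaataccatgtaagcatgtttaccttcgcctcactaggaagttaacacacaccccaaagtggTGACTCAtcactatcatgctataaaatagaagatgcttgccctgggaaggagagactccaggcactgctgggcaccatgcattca

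Distances here count from the annotated start as 0 to the first base of the motif, with negative values before the start. Elf5 held 3 E-boxes, at -155, -112 and -11, and Muc1 held them at -234 and -70. The Cldn7 window had them at -97 and -57, Krt7 at -44 and Cldn3 at 31. In the metalloproteinases the AP-1 site lay at -46 (Mmp3), -44 (Mmp12) and -35 (Mmp13). Cldn7, Elf5 and Mmp12 each have 2 annotated starts, of which 1 is printed. The other start held neither motif in Cldn7 and Mmp12, and 1 E-box, at 21, in Elf5. Each match is a match of letters and no measure of binding.

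Counted per gene, the E-box stood in 6098 of 27025 genes with a promoter window (22.6%) and in 2925 of 13336 genes on the array (21.9%). Without overlap of the gates, 246 genes (1.48%) were at least 2-fold higher in FDG-high cells and 121 (0.729%) at least 2-fold lower, and 182 and 81 of them had a window. The E-box was in 35 of the 81 lower genes (43.2%) and in 22 of the 182 higher genes (12.1%). Among all genes at an unadjusted p under 0.05, it was in 217 of 718 lower genes (30.2%), in 98 of 597 higher genes (16.4%) and in 2610 of 12021 of the rest (21.7%). By list, it was in 10 of 17 claudins and tight junction genes with a window (58.8%), 14 of 21 ion and water transport genes (66.7%), 7 of 14 luminal surface genes (50%) and 7 of 10 keratins (70%). Lists with higher and 0 lower members varied. The E-box was in 1 of 11 collagens (9.09%), 1 of 14 collagen processing genes (7.14%) and 1 of 13 basement membrane genes (7.69%). It was in 5 of 17 metalloproteinases and inhibitors (29.4%) and 4 of 11 IGF axis genes (36.4%). Integrins, with members called in both directions, held it in 6 of 14 (42.9%). Basal keratin Krt5, which was higher in FDG-high cells, also held it, and so did 5 of 8 lymphoid markers, most of which were below background. The AP-1 site stood in 1607 of 27025 genes (5.95%), in 22 of the 182 genes at least 2-fold higher (12.1%) and in 4 of the 81 at least 2-fold lower (4.94%). Among all genes at an unadjusted p under 0.05, it was in 40 of 597 higher genes (6.7%), in 45 of 718 lower genes (6.27%) and in 649 of 12021 of the rest (5.4%). Among metalloproteinases and their inhibitors 6 of 17 (35.3%) held it, and so did 6 of 10 markers of skin epidermis and hair (60%), a list with 1 higher and 2 lower members. Lists with mostly lower members also held it, in 3 of 10 membrane serine proteases and inhibitors (30%) and 4 of 17 tight junction genes (23.5%). Of the higher lists, collagen processing had it in 0 of 14 genes and basement membrane in 0 of 13. These shares describe the windows and were not tested.

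Axl, which drives the reporter, was measured by 1 probe. It read 8.89 and 9.13 in FDG-high cells, against 8.45 and 7.98 in FDG-low cells. The gates did not overlap, and the difference of 0.80 ± 0.20 (1.74-fold) did not pass (limma, adjusted p = 0.243). Among the other TAM genes the ligand protein S, encoded by Pros1, stood out at 9.20 and 9.44 in FDG-high cells and 8.15 and 7.71 in FDG-low cells. The difference of Pros1 was 1.39 ± 0.20 (limma, adjusted p = 0.115), larger than that of Axl. Which TAM receptor protein S engages in these glands was not tested. The other ligand gene, Gas6, read 7.17 and 7.51 in FDG-high cells and 6.79 and 7.66 in FDG-low cells, so its gates overlapped. Mertk differed by 0.27 ± 0.17, and Tyro3 was below background on all 4 arrays.

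The single gene to pass was Tnc, for tenascin C, a matrix glycoprotein made in tissue under remodelling. It read 9.44 and 9.67 in FDG-high cells, against 7.48 and 7.60 in FDG-low cells, a 4.02-fold difference (adjusted p = 0.0194). The probe used was the brightest of 6, and the other 5 differed by 0.25, 0.51, 0.17, 1.94 and 0.32. With the mean of all probes the difference was 0.87 and the call was lost (adjusted p = 0.118). It was also lost without any 1 of the 8 arrays other than the first heterozygous FDG-high array (adjusted p between 0.0709 and 0.225).

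**Figure D1:**
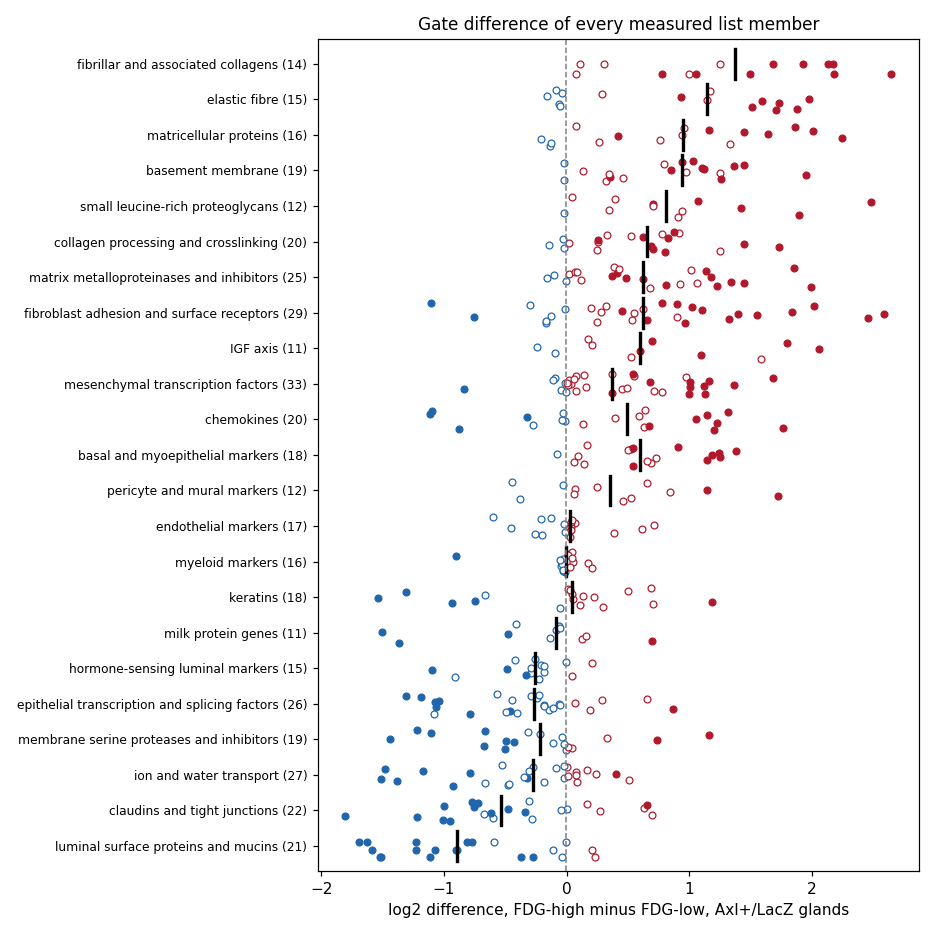
Log2 difference, FDG-high minus FDG-low, of every measured member of 23 of the 46 gene lists in Axl+/LacZ glands. Parentheses give the number of members. Lists not shown include several with small medians, such as Notch signalling (-0.02), hedgehog signalling (-0.01), TGF-β and BMP signalling (0.08) and HOX genes (0.09). Filled points had an unadjusted p under 0.05, red and blue mark positive and negative differences, black bars are list medians and the dashed line is the median of all genes (-0.00855). The collagen median is 1.37 and the median of luminal surface genes is -0.89.

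Among the genes with the largest statistics that fell short of the threshold, several encode surface receptors of stromal cells. Antxr1, a receptor for collagen VI also known as an anthrax toxin receptor, read 8.34 and 9.18 in FDG-high cells and 6.95 on both FDG-low arrays, and a further probe gave 1.69 beside its 1.80 ± 0.25. Lrp1, an endocytic receptor, read 9.73 and 9.84 in FDG-high cells, against 8.61 and 8.75 in FDG-low cells. Adgra2 (GPR124), an adhesion receptor that promotes signalling by WNT7 ligands, read 7.90 and 8.30 in FDG-high cells and 6.83 and 6.79 in FDG-low cells. Col18a1, the source of endostatin in basement membranes, read 8.11 and 8.43 against 7.05 and 7.01 in FDG-low cells. Each of its other probes gave 0.47, beside its 1.24 ± 0.16. None of these gates overlapped, and the adjusted p-values of the 4 genes lay between 0.103 and 0.115.

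On the other side, Wnt7b itself read 9.29 and 9.05 in FDG-high cells, against 11 and 10.72 in FDG-low cells, a difference of -1.69 ± 0.14 (adjusted p = 0.0557), while its other probe gave 0.01. Mal2, a membrane protein of apical transcytosis, read 6.83 and 7.0 in FDG-high cells and 8.40 and 8.95 in FDG-low cells. Edn1, the precursor of the peptide endothelin-1, read 8.17 and 8.39 in FDG-high cells and 9.46 and 9.77 in FDG-low cells. Lad1 (ladinin), an anchoring filament protein of epithelial basement membranes, had levels of 6.68 and 6.74 in FDG-high cells against 7.48 and 7.42 in FDG-low cells. The kinase Nek7 differed by -1.28 ± 0.13 and the phospholipid flippase Atp11a by -0.83 ± 0.08 (adjusted p = 0.0698 for both). The other Atp11a probe gave -0.15. By the brightest probe, all of these genes were lower on both FDG-high arrays than on either FDG-low array.

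Collagens and the proteins that assemble them were higher in FDG-high cells. All 14 measured fibrillar and associated collagens had a positive difference, with a median of 1.37, and in 11 of them the gates did not overlap (background for this rule 18.5% higher and 20.5% lower). Col1a1, the main chain of collagen I, read 9.81 and 10.85 in FDG-high cells, against 7.42 and 9.38 in FDG-low cells. Col6a2, a chain of collagen VI, had levels of 9.42 and 10.75 in FDG-high cells and 7.19 and 8.62 in FDG-low cells. Col5a1, which sets fibril diameter, gave the largest difference of the list, 2.64 ± 0.72, with replicates far apart, at 9.43 and 10.59 against 6.22 and 8.51 in FDG-low cells. On each of these genes replicate 2 was higher than replicate 1 in both gates.

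Genes for processing and crosslinking of collagen had 9 of 20 members higher and 0 lower at an unadjusted p under 0.05, with a median of 0.65. The lysyl hydroxylase Plod2 read 8.06 and 7.94 in FDG-high cells and 7.44 and 6.81 in FDG-low cells. Serpinh1 (HSP47), the collagen chaperone of the endoplasmic reticulum, read 8.62 and 8.98 against 8.18 and 7.76 in FDG-low cells. The crosslinking enzyme Lox had a difference of 1.25 ± 0.53 that did not reach an unadjusted p of 0.05, and was above background on 1 of the 2 FDG-low arrays.

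Elastic fibre genes had 7 of 15 members higher and 0 lower, with a median of 1.15. Mfap5, a microfibril glycoprotein, read 7.62 and 8.93 in FDG-high cells, against 5.95 and 6.66 in FDG-low cells, where 1 of 2 arrays was above background. Fbln2 (fibulin 2) read 7.96 and 9.12 in FDG-high cells and 6.60 and 7.03 in FDG-low cells. Ltbp4, which stores latent TGF-β on microfibrils, had levels of 8.19 and 8.75 in FDG-high cells and 7.03 and 6.90 in FDG-low cells.

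Small leucine-rich proteoglycans, which decorate collagen fibrils, had 5 of 12 members higher and 0 lower. Lum (lumican) read 10.04 and 10.95 in FDG-high cells, against 8.05 and 9.15 in FDG-low cells. Prelp differed by 1.42 ± 0.25 and Dcn (decorin) by 1.07 ± 0.31. Ogn (osteoglycin) differed by 2.48 ± 0.71, at 8.67 and 10.06 against 6.20 and 7.58 in FDG-low cells. The list as a whole had a median of 0.81.

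Among matricellular proteins, which modulate cell contact with matrix, 7 of 16 were higher and 0 lower at an unadjusted p under 0.05, Tnc among them. Thbs2 (thrombospondin 2) read 9.84 and 10.20 in FDG-high cells, against 7.52 and 8.04 in FDG-low cells. Sparc, a collagen-binding glycoprotein, read 10.75 and 11.52 in FDG-high cells and 9.32 and 10.05 in FDG-low cells. Ccn4 (WISP1), a Wnt-induced matrix protein, differed by 1.86 ± 0.49, and its other probe gave 0.27.

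Basement membrane genes had 10 of 19 members higher and 0 lower, with a median of 0.94. Nid1 (nidogen 1), which links laminin to collagen IV, read 8.37 and 9.67 in FDG-high cells, against 6.53 and 7.61 in FDG-low cells. The collagen IV chain Col4a2 read 8.98 and 9.59 in FDG-high cells and 7.74 and 8.33 in FDG-low cells. Col17a1, the hemidesmosome collagen of basal cells, had another order: it read 9.35 and 8.61 in FDG-high cells and 8.60 and 6.87 in FDG-low cells, so the gates were only just apart and replicate 1 was the higher in both.

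Matrix metalloproteinases, related proteinases and their inhibitors had 12 of 25 members higher and 0 lower, with a median of 0.62. Mmp3 (stromelysin 1), with the AP-1 site shown above, read 11.08 and 10.88 in FDG-high cells, against 8.63 and 9.36 in FDG-low cells. Its other 2 probes gave 1.89 and 1.84 beside its 1.99 ± 0.38. Mmp12 (macrophage elastase) read 7.40 and 7.68 in FDG-high cells and was below background on both FDG-low arrays, at least 2.67-fold higher (adjusted p = 0.0557). Mmp13, a collagenase, read 7.42 and 7.66 in FDG-high cells and 6.25 and 6.49 in FDG-low cells, and its other probe gave 0.17. Mmp2 (gelatinase A) read 9.72 and 10.54 in FDG-high cells and 7.94 and 8.61 in FDG-low cells.

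**Figure D2:**
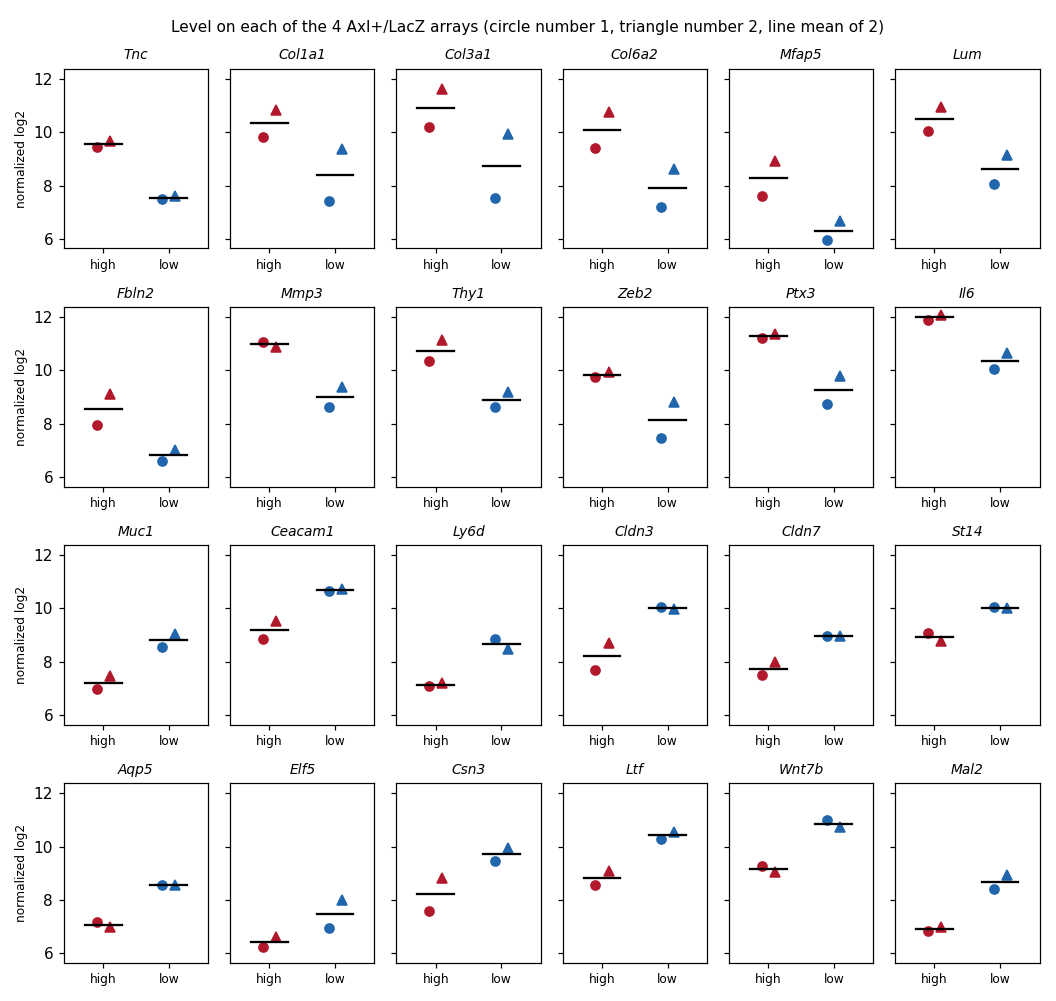
Normalized log2 level of 24 genes on the 4 Axl+/LacZ arrays, FDG-high in red on the left and FDG-low in blue on the right of each panel. Circles are replicate 1, triangles replicate 2 and lines the mean of 2. The upper 12 genes are higher on both FDG-high arrays than on either FDG-low array and the lower 12 are lower, and in Col1a1 and Col3a1 the 2 FDG-low arrays lie far apart.

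Surface proteins of fibroblasts had 14 of 29 members higher and 2 lower, with a median of 0.62. Thy1 (CD90) read 10.33 and 11.13 in FDG-high cells, against 8.61 and 9.19 in FDG-low cells. Gpc3 (glypican 3), a heparan sulphate proteoglycan, differed by 2.58 ± 0.50 and its other probe by 2.42. Lgals1 (galectin 1) read 9.96 and 10.56 in FDG-high cells and 8.54 and 8.87 in FDG-low cells. The peptidase inhibitor Pi16 and the proteoglycan Cd248 (endosialin), known from fibroblasts and pericytes, each differed by 2.45. Pi16 read 9.87 and 11 in FDG-high cells and 6.90 and 9.07 in FDG-low cells, and Cd248 8.48 and 10.41 against 6.17 and 7.81 in FDG-low cells. The other Cd248 probe gave 0.67.

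Integrin genes lay on both sides. Itga5, the fibronectin receptor chain, was higher in FDG-high cells, at 7.53 and 7.30 against 6.61 and 6.43 in FDG-low cells. Itgb6 and Itgb8, epithelial chains that activate latent TGF-β, were on the other side: Itgb6 read 8.03 and 8.32 in FDG-high cells and 8.92 and 9.10 in FDG-low cells, and Itgb8 differed by -0.81 ± 0.17. In all, 2 of 18 integrin genes were higher and 3 lower at an unadjusted p under 0.05.

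Growth factor genes also lay on both sides. Pdgfra, the platelet-derived growth factor receptor of fibroblasts, read 9.60 and 10.32 in FDG-high cells, against 6.99 and 8.90 in FDG-low cells. Egfr read 9.04 and 9.39 in FDG-high cells and 8.35 and 8.33 in FDG-low cells, and its other 3 probes gave 0.82, 0.38 and 0.87. The epithelial FGF receptor Fgfr2 had a difference of -0.64 ± 0.22, with -0.54 and -0.71 from its other probes. The neuregulin Nrg1, a basal cell ligand, differed by 0.92 ± 0.37. The lists of PDGF and FGF genes (2 higher and 4 lower of 20) and of EGF family genes (3 higher and 2 lower of 8) had medians of 0.14 and -0.03.

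The TGF-β receptors Tgfbr2 and Tgfbr3 were higher in FDG-high cells, at differences of 0.96 ± 0.19 and 0.67 ± 0.17, and the signal transducer Smad3 had a difference of -0.63 ± 0.23. Over the 31 genes of this list, 3 were higher and 2 lower, a share close to the background. Of 12 hedgehog genes 2 were higher, the surface co-receptor Gas1 (0.67 ± 0.25) and the transcription factor Gli3 (0.56 ± 0.22). Of 16 Notch pathway genes, 0 were higher and 0 lower at an unadjusted p under 0.05.

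The IGF axis had 5 of 11 members higher and 0 lower, with a median of 0.60. The binding proteins Igfbp4 and Igfbp2 differed by 2.05 ± 0.54 and 1.09 ± 0.15. Igfbp4 read 8.82 and 10.25 in FDG-high cells, against 6.86 and 8.09 in FDG-low cells. Igfbp2 read 7.12 and 7.42 in FDG-high cells and 6.29 and 6.07 in FDG-low cells, where 1 of 2 arrays was above background. The other Igfbp2 probe gave 0.46. Igf1 itself differed by 1.58 ± 0.66 and missed an unadjusted p of 0.05.

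Wnt genes had 7 of 32 members higher and 3 lower. The secreted antagonists Sfrp2 and Sfrp4 were higher: Sfrp2 read 9.14 and 10.28 in FDG-high cells, against 7.72 and 8.41 in FDG-low cells. Rspo1 (R-spondin 1), which amplifies Wnt signals, read 7.12 and 7.41 in FDG-high cells and 8.48 and 8.59 in FDG-low cells. Wnt2 differed by 1.03 ± 0.40, the reverse of Wnt7b. Guidance genes had 5 of 33 higher and 1 lower, and the semaphorin co-receptor Nrp1 read 7.88 and 8.67 in FDG-high cells and 6.53 and 7.32 in FDG-low cells.

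Chemokines had 7 of 20 members higher and 4 lower at an unadjusted p under 0.05. Ccl7, which attracts monocytes, read 11.45 and 11.88 in FDG-high cells, against 9.48 and 10.33 in FDG-low cells. Cxcl12, a stromal chemokine, read 8.49 and 8.78 in FDG-high cells and 6.87 and 7.78 in FDG-low cells. Ccl5 was among the lower members, at 7.53 and 8.08 in FDG-high cells and 8.96 and 8.88 in FDG-low cells. Il6 read 11.90 and 12.08 in FDG-high cells and 10.04 and 10.66 in FDG-low cells, and the alarmin Il33 read 8.11 and 8.21 against 6.28 and 6.75 in FDG-low cells. Over the IL-6 and IL-1 families 4 of 21 genes were higher and 2 lower. The pentraxin Ptx3, a secreted pattern recognition protein, read 11.23 and 11.37 in FDG-high cells and 8.74 and 9.79 in FDG-low cells. Complement genes had 3 of 15 members higher and 0 lower, and the complement inhibitor Serping1 differed by 1.68 ± 0.60.

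Mesenchymal transcription factors had 11 of 33 members higher and 1 lower, with a median of 0.37. Zeb1 read 8.02 and 8.55 in FDG-high cells, against 7.24 and 7.31 in FDG-low cells. Zeb2 read 9.74 and 9.93 in FDG-high cells and 7.48 and 8.83 in FDG-low cells, and its other probe gave 1.40. Both proteins bind the E-box whose share is given above, and whether they act on the genes that differed was not tested. Ebf1, a factor of mesenchymal and fat cell precursors, read 7.24 and 7.85 in FDG-high cells and 6.29 and 6.50 in FDG-low cells. The calcium-responsive factor Nfatc4 differed by 1.12 ± 0.13 and the zinc finger protein Bnc2 by 1.36 ± 0.17. Of 25 HOX genes 3 were higher and 0 lower, the largest being Hoxc6 at 1.18 ± 0.26.

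Luminal surface proteins and mucins had 15 of 21 members lower in FDG-high cells at an unadjusted p under 0.05, against 5.53% lower over all genes, and a median of -0.89. Muc1 read 6.97 and 7.47 in FDG-high cells, against 8.56 and 9.06 in FDG-low cells, and its other 3 probes gave -1.06, -1.06 and -1.03. Ceacam1, an adhesion molecule of the apical membrane, read 8.84 and 9.52 in FDG-high cells and 10.67 and 10.73 in FDG-low cells. Ly6d read 7.08 and 7.21 in FDG-high cells and 8.86 and 8.47 in FDG-low cells. The gates were separated in 16 of the 21 with FDG-high cells lower (20.5% of all genes) and in 1 with FDG-high cells higher (18.5% of all genes). Among genes of retinoid metabolism, Aldh1a3, a retinaldehyde dehydrogenase of luminal progenitors, read 9.10 and 9.70 in FDG-high cells and 10.33 and 10.71 in FDG-low cells.

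Tight junction genes had 11 of 22 members lower and 1 higher, with a median of -0.54. Cldn3 read 7.71 and 8.71 in FDG-high cells, against 10.05 and 9.98 in FDG-low cells, a difference of -1.80 ± 0.33. Cldn7 read 7.49 and 8.0 in FDG-high cells and 8.96 and 8.97 in FDG-low cells. Ocln (occludin) differed by -1.0 ± 0.40 and Cldn1 by -0.95 ± 0.31. Of 22 genes of adherens junctions and desmosomes, 5 were lower, among them Pkp2 (-1.08 ± 0.30) and Ppl (-0.91 ± 0.34), and 2 were higher, among them the mesenchymal cadherin Cdh11 (0.68 ± 0.26).

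Keratins divided by layer in part. The luminal keratins Krt7, Krt8, Krt18 and Krt19 were the 4 of 18 keratins that were lower at an unadjusted p under 0.05. Krt7 read 8.82 and 9.23 in FDG-high cells, against 10.58 and 10.54 in FDG-low cells. Krt8 read 9.94 and 10.16 in FDG-high cells and 11.03 and 10.93 in FDG-low cells, and its partner Krt18 differed by -0.75 ± 0.25. Krt19 read 7.73 and 8.54 in FDG-high cells and 9.36 and 9.53 in FDG-low cells. The basal keratin Krt5 was the 1 higher member, at 11.44 and 11.17 in FDG-high cells and 10.52 and 9.71 in FDG-low cells. Krt14 and Krt17, further basal keratins, fall outside the naming rule and were added because they mark the basal layer. Krt14 read 11.36 and 10.79 in FDG-high cells and 11.33 and 9.83 in FDG-low cells, and Krt17 read 11.62 and 11.30 against 11.31 and 10.23 in FDG-low cells. Both overlapped between the gates, and neither reached an unadjusted p of 0.05.

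**Figure D3:**
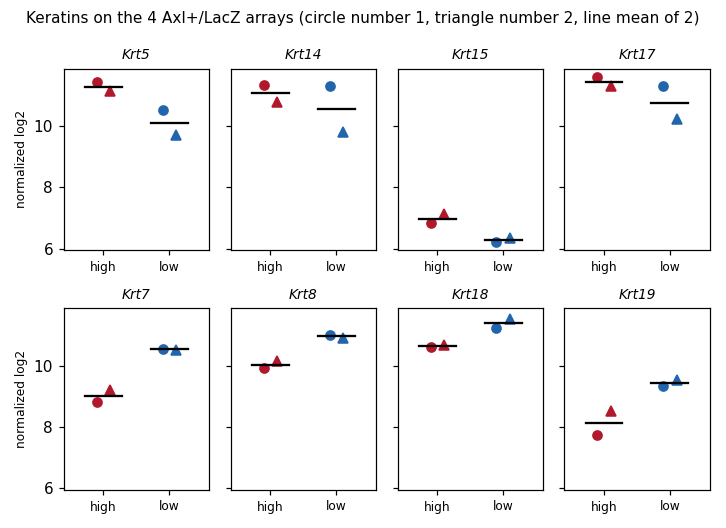
Normalized log2 level of 4 basal-layer keratins (upper row) and 4 luminal keratins (lower row) on the Axl+/LacZ arrays, FDG-high on the left and FDG-low on the right. Circles are replicate 1, triangles replicate 2 and lines the mean of 2. All 4 luminal keratins are lower on both FDG-high arrays, while Krt14 and Krt17 overlap between the gates.

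Basal and myoepithelial markers had 9 of 18 members higher and 0 lower, with a median of 0.60. Mylk, the myosin light chain kinase of contractile cells, read 9.51 and 9.35 in FDG-high cells, against 8.05 on both FDG-low arrays. Actg2, a smooth muscle actin, read 8.66 and 9.0 in FDG-high cells and 7.42 and 7.75 in FDG-low cells. Myh11, the smooth muscle myosin heavy chain, read 9.53 and 8.66 in FDG-high cells and 8.49 and 7.42 in FDG-low cells. Smooth muscle genes are also expressed by pericytes, and of 12 pericyte and mural markers 2 were higher and 0 lower, Rgs5 (1.72 ± 0.49) and Myh11. Basal markers shared their direction with the stromal lists, although luminal and basal cells are both epithelial.

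Transcription and splicing factors of epithelium had 7 of 26 members lower and 1 higher, with a median of -0.27. Elf5, which directs alveolar luminal fate, read 6.25 and 6.62 in FDG-high cells, against 6.93 and 8.01 in FDG-low cells, and its other probes gave -0.82 and -0.90. Elf3 read 6.30 and 6.69 in FDG-high cells and 7.36 and 7.75 in FDG-low cells. The RNA-binding protein Rbm47 read 9.76 and 9.65 in FDG-high cells and 11.20 and 10.82 in FDG-low cells, and its other 4 probes ranged between -0.57 and 0.12. Ehf, an ETS factor of epithelial cells, differed by -1.19 ± 0.45 and Ovol2, a repressor of mesenchymal genes, by -1.07 ± 0.41.

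Membrane serine proteases and their inhibitors had 8 of 19 members lower and 2 higher. St14 (matriptase) read 9.08 and 8.77 in FDG-high cells, against 10.06 and 10.01 in FDG-low cells, and its other probe gave -1.52. Prss8 (prostasin), which acts in a cascade with matriptase, read 6.86 and 6.69 in FDG-high cells and 7.91 and 8.08 in FDG-low cells. The higher members were Plau (urokinase), at 0.74 ± 0.24, and Serpinf1 (PEDF), a secreted serpin of stromal cells, at 1.16 ± 0.31.

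Ion and water transport genes had 7 of 27 members lower and 1 higher, with a median of -0.28. The water channel Aqp5 read 7.17 and 6.97 in FDG-high cells, against 8.55 on both FDG-low arrays. Atp1b1, the β1 subunit of the sodium pump, read 8.25 and 9.03 in FDG-high cells and 10.15 and 10.16 in FDG-low cells. The chloride channel Ano1 differed by -0.93 ± 0.19 and the lactate transporter Slc5a8 by -1.17 ± 0.40.

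Secretory products followed the luminal genes in part. Of 20 innate defence genes 5 were lower and 1 higher. Ltf (lactotransferrin) read 8.57 and 9.10 in FDG-high cells, against 10.29 and 10.56 in FDG-low cells, and its other probe gave -0.59. Lcn2 (lipocalin 2) differed by -0.81 ± 0.25 and the peptidoglycan recognition protein Pglyrp1 by -1.11 ± 0.21. Of 11 milk protein genes 3 were lower and 1 higher. Csn3 (κ-casein) read 7.57 and 8.84 in FDG-high cells and 9.47 and 9.95 in FDG-low cells, and Btn1a1 (butyrophilin) differed by -1.37 ± 0.39. Plin2, the lipid droplet coat protein, was the higher member, at 0.69 ± 0.23.

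Hormone-sensing luminal markers had 3 of 15 members lower and 0 higher, with a median of -0.26. In 9 of the 15 the gates were separated with FDG-high cells lower (20.5% of all genes). The growth factor Ptn (pleiotrophin) read 9.82 and 9.73 in FDG-high cells, against 10.13 and 10.08 in FDG-low cells. The oestrogen receptor Esr1 differed by -0.42 ± 0.19 and the progesterone receptor Pgr by -0.29 ± 0.17, and neither reached an unadjusted p of 0.05.

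Most myeloid, lymphoid and skeletal muscle markers were below background. Of 16 myeloid markers 3 were above background in a gate and 13 were not (Ptprc and Itgam among the 13), and the list medians were 5.92 and 5.95 in FDG-high cells and 5.88 and 5.96 in FDG-low cells. Of 13 lymphoid markers 3 were above background, and the 1 higher member was Thy1, which fibroblasts also express. None of 13 skeletal muscle markers was above background on both arrays of a gate. Endothelial markers had 0 of 17 members higher and 0 lower. Of 16 adipocyte markers 2 were higher, the lipase Lpl (1.49 ± 0.57) and Pparg (0.88 ± 0.35), and 1 was lower. Of 7 erythrocyte markers 3 were lower, and the haemoglobin gene Hba-a1 read 5.85 and 6.70 in FDG-high cells and 6.83 and 7.86 in FDG-low cells. Of 9 Schwann cell and nerve markers 1 was higher and 1 lower, of 11 markers of skin epidermis and hair 1 was higher and 2 were lower, and of 20 genes of retinoid and steroid metabolism 2 were higher and 3 lower. Proliferation genes had 1 of 18 members higher and 0 lower, and immediate-early genes 0 higher and 3 lower of 21. The part of these cell types in the results above was not tested.

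The 2 arrays of a gate lay apart in their connective tissue levels. Across the 14 collagens the median level was 8.72 and 9.68 in FDG-high cells and 6.86 and 8.29 in FDG-low cells, with replicate 2 the higher in both. Within replicate 1 the collagen median difference was 1.12 and within replicate 2 it was 1.51. Luminal surface genes had medians of 6.69 and 7.14 in FDG-high cells and 8.37 and 8.47 in FDG-low cells, and within-replicate differences of -0.89 and -0.84. Elastic fibre genes gave 0.49 within replicate 1 and 1.24 within replicate 2, and tight junction genes -0.38 and -0.63. These medians kept their sign in both pairs, and each pair is 1 array against 1 with no replicate check. Single members could change sign when 1 array was left out. Of 18 basal markers, 4 had a negative difference without the first FDG-high array and 4 without the second FDG-low array, against 1 with all arrays. With 1 array at a time left out, the number of collagens higher at an unadjusted p under 0.05 lay between 5 and 11 and was lowest when FDG-high replicate 2 was dropped. Without that array, basement membrane genes had 5 higher members and metalloproteinases 7. Basal markers had 5 without the first FDG-high array and 5 without the second FDG-low array. Lower luminal surface genes numbered between 9 and 14, with the fewest when the second FDG-low array was left out. Lower tight junction genes were the least stable, at 5 without the first FDG-high array, 5 without the second FDG-low array, 6 without the second FDG-high array and 7 without the first FDG-low array or either homozygous FDG-low array. With both replicate 2 arrays left out, an alternative chosen after the data were seen, 10 collagens were higher and 13 luminal surface and 4 tight junction genes were lower. With both replicate 1 arrays left out, these counts were 11, 11 and 7.

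The final comparison asked whether a gate difference depended on genotype. The interaction of gate and genotype passed for 135 of 16593 genes (0.814%). In luminal lists the homozygous glands ran the other way: the median difference of luminal surface genes was 0.96 in homozygous and -0.89 in heterozygous glands, and 6 of the 21 members passed the interaction test. Tight junction genes had medians of 0.37 in homozygous and -0.54 in heterozygous glands. Collagens had -0.07 in homozygous and 1.37 in heterozygous glands, and 0 of 14 members passed. Basal markers had 1.41 in homozygous and 0.60 in heterozygous glands, positive in both.

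Levels show which groups stood apart. The collagen median was 9.39 and 9.20 in homozygous FDG-high cells and 9.45 and 9.38 in homozygous FDG-low cells, all within the range of the heterozygous FDG-high arrays and above both heterozygous FDG-low arrays. The luminal surface median was 7.53 and 6.61 in homozygous FDG-high cells and 6.15 and 6.25 in homozygous FDG-low cells, all below both heterozygous FDG-low arrays.

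The interaction was also tested for single genes. Most of them had been named for their heterozygous gate difference, which is part of the interaction, so they are no independent support for the list medians. The difference of Krt7 was 2.33 in homozygous and -1.54 in heterozygous glands (interaction 3.87, adjusted p = 0.0239). For St14 it was 2.11 in homozygous and -1.11 in heterozygous glands (adjusted p = 0.0124), and for Rbm47 2.11 and -1.31 (adjusted p = 0.0124). Ltf gave 1.91 in homozygous and -1.59 in heterozygous glands (adjusted p = 0.035). On the stromal side, Tnc gave -0.24 in homozygous and 2.01 in heterozygous glands (adjusted p = 0.00973), Mmp13 -1.69 and 1.17 (adjusted p = 0.0416) and Ebf1 -0.99 and 1.16 (adjusted p = 0.0417). Krt5 and Mylk were positive in both, at 2.07 and 2.05 in homozygous and 1.18 and 1.38 in heterozygous glands, with adjusted interaction p-values of 0.43 and 0.587. Axl gave -0.08 in homozygous and 0.80 in heterozygous glands (adjusted p = 0.222). In homozygous glands it read 6.07 and 6.40 in FDG-high cells and 6.24 and 6.40 in FDG-low cells. These levels lay close to the background of those arrays (6.09 to 6.20), so a gate difference of Axl could not be read there. Without any 1 of the 4 FDG-low arrays the interaction passed for at most 1 gene.

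**Figure D4:**
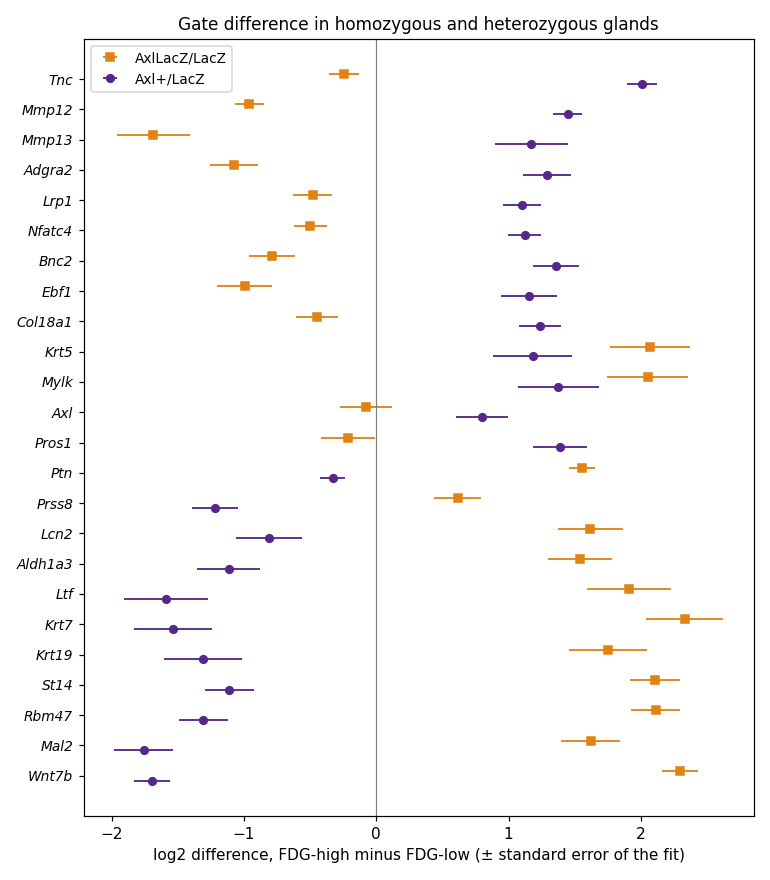
Log2 difference, FDG-high minus FDG-low, of 24 genes in AxlLacZ/LacZ glands (orange squares, upper) and Axl+/LacZ glands (purple circles, lower), with the standard error of the fit. Krt5 and Mylk are positive in both genotypes, while Krt7, St14 and Wnt7b are positive in homozygous and negative in heterozygous glands.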

How the data were processed

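Gene expression was measured on Illumina bead arrays of sorted mammary cells, with 8 arrays in 4 groups of 2. RNA was purified with RNeasy columns and amplified to biotinylated cRNA with an Ambion kit, per the labels' protocols. The authors deposited linear probe intensities, 25697 per array. The series' design text speaks of quantile normalized log2 values, but the deposited intensities are on neither a log scale nor a common distribution. The sources used here do not give how beads were summarized or background was treated before deposit. The number of arrays limits the precision.

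From these intensities, background was corrected with normexp (offset 50), arrays were quantile normalized over all 8, and log2 was taken, with limma 3.58.1 in R 4.3.3. The offset understates the change of dim genes. The platform annotation gave 1 gene symbol to 23978 probes and none to 1719, and 23962 matched RefSeq of GRCm38.p6 with 0 symbols altered. The brightest probe stood for a gene, and 4777 of 16593 genes had several. Background was the 95th percentile of 1326 probes of odorant, vomeronasal and trace amine receptors, and a gene was above background where any of its probes was. A fold against a gate below background is a lower bound. It sets the bright gate's mean against the dim arrays' mean, in which a value under the lowest one above background was raised to it.

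A single limma fit over 4 groups gave each difference and the interaction, with two-sided p-values, Benjamini-Hochberg adjustment over all genes and a threshold of 0.05. In this fit 4 residual degrees of freedom were joined by 2.36 from the prior. When 1 array was left out, its partner was assumed to vary like the other groups. On simulated data of 16593 genes, 89% of 200 genes changed 4-fold in the heterozygous comparison were recovered, with 6 false calls. Those genes were drawn at random and the noise was independent between arrays, so the share does not give the recovery of the genes named here. In the data Col5a1 and Gpc3 differed 6.25-fold and 5.99-fold and did not pass (limma, adjusted p = 0.282 and 0.171).

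Gene lists (46) and the genes named were chosen with earlier results of these data known. Named genes were Axl, the 15 in each direction with the largest statistic, the 15 with the largest difference among genes above background without overlap of the gates, up to 6 members of each list, and the TAM genes. Ptprc, Itgam, Pecam1, Krt14 and Krt17 were added after their values were seen. Among genes given by name in the results, a further probe had the opposite sign for Wnt7b, Rbm47 and Pecam1. For several more, a further probe gave a smaller difference of the same sign, such as Dcn (0.46), Bnc2 (0.71), Tgfbr2 (0.49) and Itgb6 (-0.20).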

Additional observations from a re-analysis of the deposited data

Results flagged for a closer look

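The gate difference depended on genotype for 27 of 124 genes examined among those named above. The test was that of the interaction (limma, adjusted p under 0.05), which 0.814% of all genes passed. Most named genes were picked by their heterozygous gate difference, which is part of the interaction, so these shares cannot be compared. Values are the FDG-high minus FDG-low difference in homozygous glands minus that in heterozygous glands, on the log2 scale.

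Positive values, a gate difference more positive in homozygous glands, were found mainly in genes of the luminal layer. Among keratins and surface genes the interaction was 3.87 for Krt7, 3.06 for Krt19 and 2.74 for Ly6d. The retinaldehyde dehydrogenase Aldh1a3 had 2.66. The membrane proteases St14 and Prss8 had 3.22 and 1.83. The channels Aqp5 and Ano1 had 2.57 and 2.18. The secreted defence proteins Ltf and Lcn2 had 3.50 and 2.43, and the RNA-binding protein Rbm47 had 3.42. Secreted signals had 3.99 (Wnt7b), 2.43 (Edn1), 1.97 (Ccl5) and 1.89 (Ptn). The remaining positive values were 3.38 for Mal2, 2.14 for Nek7 and 1.35 for Lad1.

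Negative values belonged to matrix genes, stromal receptors and mesenchymal transcription factors. Matrix genes had -2.25 (Tnc) and -1.69 (Col18a1), and the metalloproteinases -2.86 (Mmp13) and -2.41 (Mmp12). The receptors Adgra2 and Lrp1 had -2.37 and -1.58. The factors Ebf1, Bnc2 and Nfatc4 had -2.15, -2.15 and -1.62.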

How the results depend on the processing

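The number of genes higher in FDG-high cells after adjustment was 1 in the reported fit. It was 2 with an offset of 16, and 0 with the heterozygous arrays alone, with the mean of all probes, with a replicate block within genotype and with a replicate block shared by genotypes. It lay between 0 and 6 with 1 array left out: 6 without the first heterozygous FDG-high array and 0 without each of the others. The number lower was 0 in the reported fit and 1 with median centring (Wnt7b, adjusted p = 0.0312). With either replicate pair left out, chosen after the data were seen, both were 0. At an unadjusted p the counts stayed within 1.5 times, at 557 to 1103 higher and 700 to 1082 lower. The interaction count of 135 was 81 without background correction, 258 with an offset of 16, 258 with the background filter, 277 with an intensity trend and 206 with a replicate block within genotype. It lay between 0 and 328 with 1 array left out and was 0 with either replicate pair left out. Leaving out a homozygous FDG-low array gave 0 and a heterozygous one 1, for each replicate. Without the first and second homozygous FDG-high arrays 44 and 328 genes passed, and 13 did without the second heterozygous one. It needs all 4 groups and was not fitted on heterozygous arrays alone. The adjusted p of Tnc was 0.258 with heterozygous arrays alone, 0.118 with the mean of probes, 0.0643 and 0.0771 with the blocks and 0.323 and 0.173 with pairs left out. Mertk reversed to -0.0076 and Gas6 to -0.1466 without the replicate 1 pair. With 1 array left out, Gas6 lay between -0.3164 and 0.5511 and Krt14 between -0.2485 and 1.246. The replicate numbers are shared by 2 samples a gate, and deviations of same-numbered arrays correlated at 0.397 in heterozygous and 0.011 in homozygous glands, which does not establish pairing. The cause of these shifts was not tested. Median centring moved the median difference of all genes to 0.00122, against -0.00855.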
